A study of Homo sapiens with 6 samples.

Results

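The genes described here encode the proteasome, its inducible subunits, its activators and the factors that assemble it. They were chosen by name: every gene whose symbol in the platform annotation is PSMA, PSMB, PSMC, PSMD, PSME, PSMF or PSMG followed by a number, on a probe set that named no second gene. This gave 42 genes of the 19775 measured, on 81 probe sets, out of 48 known genes of this kind: PSMA6 and PSME2 shared their probe sets with other genes, and PSMB11, PSMC5, PSMD7 and PSMD13 were not analysed here. They were measured on 3' expression arrays in NTERA2/D1 cells, an established human testicular teratocarcinoma line whose cells resemble those of the early embryo. The control group held 3 arrays of cells transfected with a nonspecific scrambled siRNA, and the knockdown group 3 arrays of cells transfected with siRNA against VAMP7. Both groups were transfected 24 h after plating and kept for 72 h. The titles number the samples as biological replicates 1 to 3 in each group, whereas the descriptions give all 3 knockdown samples the number 1, and the numbers used here are those of the titles. Nothing in the labels says that they came from separate cultures, so a p-value here measures the spread among these arrays alone, part or all of which may be technical. The siRNA sequences are not given in the labels, and all samples came from 1 cell line.

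The proteasome is the protease that degrades most short-lived proteins of the cytosol and nucleus once they carry ubiquitin chains. Its core particle, called 20S, is a barrel of alpha and beta rings, and only the beta subunits PSMB5, PSMB6 and PSMB7 cut peptide bonds. A regulatory particle, called 19S, caps the barrel: its base unfolds substrates with a ring of ATPases and its lid removes the ubiquitin. Interferon, a cytokine signal of infection, induces PSMB8, PSMB9 and PSMB10, which replace the constitutive catalytic subunits to form the immunoproteasome and favour peptides for display on major histocompatibility complex class I. Genes of the constitutive particle are known to be transcribed together when proteasome activity falls short, through the transcription factor NFE2L1. The comparison asks which of these transcripts differ when VAMP7, a SNARE protein that fuses late endosomal vesicles with their targets, is lowered.

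The labels held for the targeted gene. VAMP7 read 2487, 2617 and 2741 intensity units on the control arrays and 137, 175 and 149 on the knockdown arrays, so 5.87% of the control signal remained (log2 difference -3.71, SE 0.11, adjusted p = 8.65e-05 in limma). Intensities were scaled by the authors, and the median intensity of an array ran from 58.8 to 67.5. Differences are given as knockdown minus control of log2(intensity + 50), and the added 50 shrinks the differences of dim genes. Knockdown replicate 1 stood apart, correlating at 0.988 on average with the remaining arrays, whose own averages were 0.990 to 0.991. Of the 7 embryonal markers measured, all brighter than the median gene, 4 lay above 0 and 3 below (median 0.04), from NANOG at -0.28 (adjusted p = 0.742 in limma), the 1 of them whose groups did not overlap, to SOX2 at 0.22 (adjusted p = 0.806). Among all genes, 6.29% read lower without overlap and 6.68% higher. The part of these array and marker differences in the proteasome values was not tested.

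None of the 42 proteasome genes passed the test. Limma called 0 of them at an adjusted p under 0.05, where it called 0.00506% of all genes, VAMP7 alone, and the smallest adjusted p of a member was 0.709. The largest differences were those of the inducible subunits PSMB8 (-0.39) and PSMB10 (-0.36), the core subunit PSMB3 (-0.30) and the base ATPase PSMC6 (-0.30). At the other end stood the lid subunit PSMD11, at 0.13. The standard errors of the members ran from 0.086 to 0.16, and their unadjusted 95% intervals together spanned -0.76 to 0.46. A 2-fold change in either direction therefore lay outside the interval of each of the 39 members of at least median signal. For PSMA8, PSMB8 and PSMB9, the 3 members dimmer than the median gene, the intervals cannot exclude such a change. The constant added before taking logs shrinks their differences. Their mean knockdown intensities were 77.8%, 29.3% and 44.5% of the control means, in that order.

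More members lay below 0 than above it. Of the 42, 28 had a difference below 0 (66.7%), against 49.2% of all genes, and 14 had one above 0, against 50.8%. The count below 0 was 26 after quantile normalization, against 52.3% of all genes, and 33 after centring each array on its median, against 57.9%. The median difference of the members was -0.06, and that of all genes 0.003. At an unadjusted p under 0.05 there were 4 members lower, against 3.03% of all genes, and 0 higher, against 3.63%. The 4 were PSMC6, PSMB10, PSMG3 and PSMB8. When each array was left out in turn, 1 to 4 members were lower at that threshold. Without control replicate 2 this was PSMB10 alone, and without knockdown replicate 1 or 2 it was PSMC6 alone. Without control replicate 1 they were PSMC6 and PSMB6, the latter not among the 4, and without control replicate 3 they were PSMB8 and PSMC6. All of these counts rest on unadjusted p-values.

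The 3 knockdown arrays all read below the 3 control arrays for 10 members, against 6.29% of all genes, and all above them for 0 members, against 6.68%. The 10 were PSMA4, PSMA5, PSMB3, PSMB8, PSMB10, PSMC6, PSMD8, PSMD14, PSME1 and PSMG3, drawn from 7 of the 8 classes. Without control replicate 1 the count was 19, but with fewer arrays the groups separate more often, and 11% of all genes were then lower without overlap. On the higher side there was then 1 member, against 12% of all genes. The plot of the differences shows how these 10 stand among the rest.

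**Figure D1:**
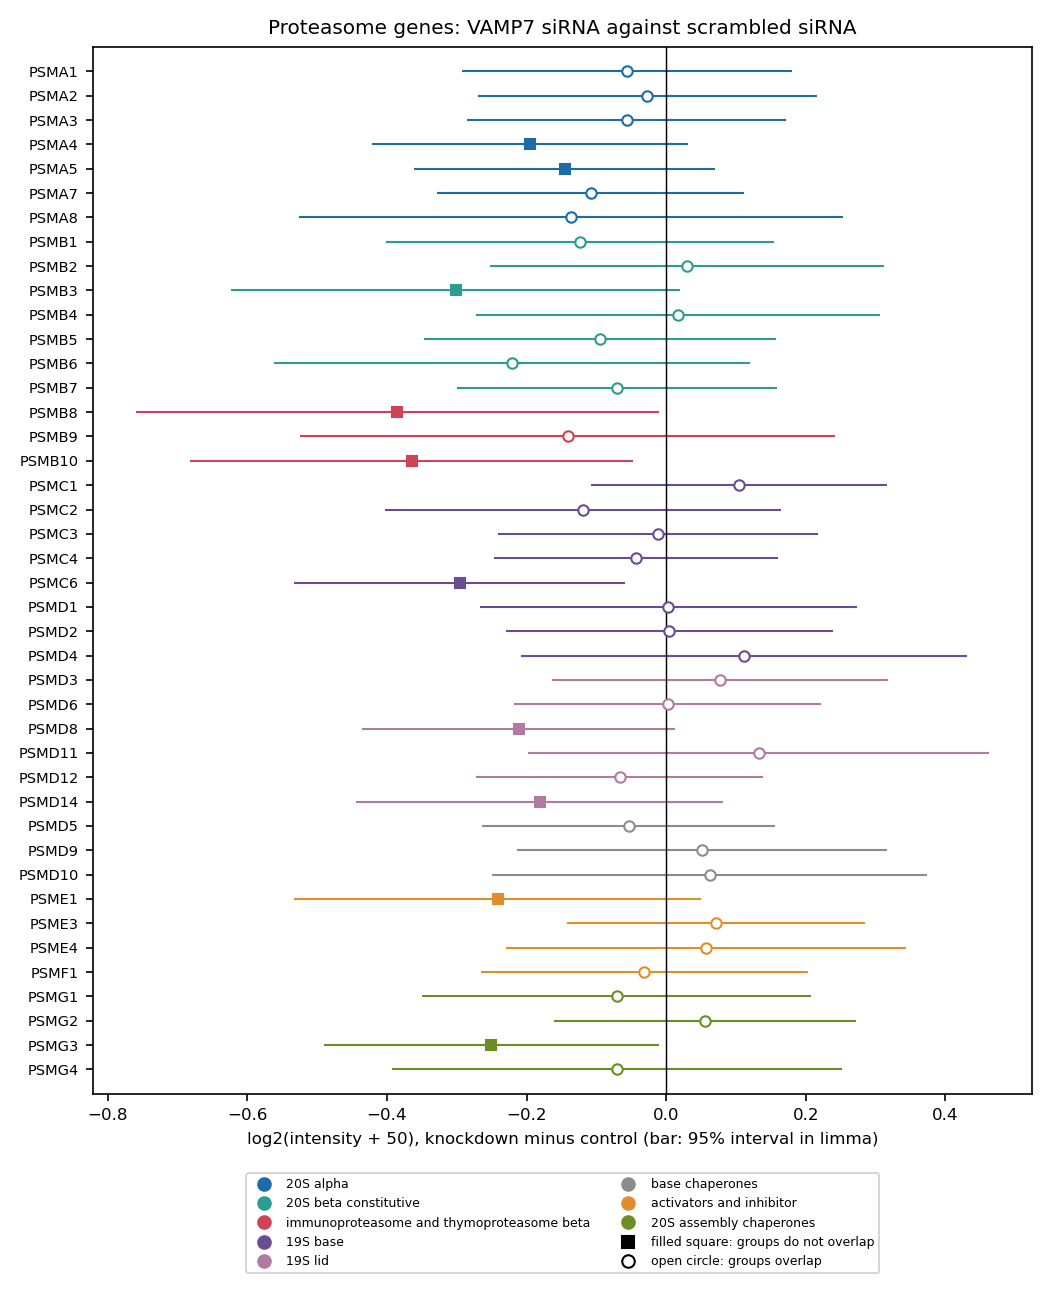
Difference in log2(intensity + 50), knockdown minus control, for each of the 42 proteasome genes (point) with its 95% interval in limma (bar), 3 arrays per group, in order of class. The 10 filled squares, genes whose groups do not overlap, all lie left of 0, and the intervals of 38 of the 42 genes include 0.

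The alpha subunits form the outer rings of the core and gate its entry. All 7 measured members had a difference below 0, from -0.20 to -0.03, with PSMA2 turning to 0.01 after quantile normalization. None passed the test (smallest adjusted p = 0.772 in limma). PSMA4 read 12435, 13928 and 13395 in control and 10976, 11661 and 12060 in knockdown. Its highest knockdown array lay 374 units under its lowest control array, and its difference was -0.20 (SE 0.10, adjusted p = 0.772). PSMA5, another subunit of the alpha ring, read 6119, 6342 and 6041 in control and 5331, 5912 and 5486 in knockdown. Again the groups did not overlap, and the difference was -0.15 (SE 0.09, adjusted p = 0.814). PSMA7 followed at -0.11, and PSMA1, PSMA2 and PSMA3 lay between -0.06 and -0.03 with overlapping groups. PSMA8, an alpha subunit that replaces PSMA7 in germ cells during meiosis, read 9.67 to 43.4 over the 6 arrays, below the median intensity of an array throughout. Its difference of -0.14 (SE 0.16) turned to 0.01 without knockdown replicate 2.

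Of the 7 constitutive beta subunits 5 lay below 0, and the 2 above it, PSMB2 at 0.03 and PSMB4 at 0.02, turned below 0 after median centring. PSMB3, a structural beta subunit, read 8476, 8721 and 9569 in control and 6010, 7799 and 8024 in knockdown. All 3 knockdown arrays were lower, most of all replicate 1, and 81.6% of the control signal remained (difference -0.30, SE 0.14, adjusted p = 0.754). Without knockdown replicate 1 the difference was -0.17. PSMB6, the catalytic subunit with caspase-like activity, read 5262, 7509 and 6047 in control and 5676, 5069 and 5228 in knockdown. Control replicate 2 set most of its difference, which was -0.22 (SE 0.14, adjusted p = 0.819) and -0.08 without that array. PSMB5, which cuts after hydrophobic residues as the chymotrypsin-like site, read 6428, 7013 and 7663 in control and 6188, 6547 and 6991 in knockdown. Its groups overlapped (difference -0.09, SE 0.11, adjusted p = 0.888). PSMB7, the trypsin-like site, read 11581, 13191 and 12777 in control and 11366, 12027 and 12331 in knockdown, overlapping too (difference -0.07, SE 0.10, adjusted p = 0.911). The 3 constitutive catalytic subunits thus all read lower on average, by at most 0.22, with overlapping groups.

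The inducible catalytic subunits had the lowest median of the 8 classes, -0.36 over the 3 measured, on low signals. With 3 genes this median is the value of PSMB10. PSMB10, the inducible counterpart of PSMB7, read 296, 239 and 267 in control and 164, 196 and 233 in knockdown. The groups did not overlap, and 73.9% of the control signal remained (difference -0.36, SE 0.13, adjusted p = 0.728). PSMB8, the counterpart of PSMB5, read 42.5, 24.4 and 11.8 in control and 3.17, 10.9 and 9.05 in knockdown. Every one of these values lay below the median intensity of its array. The PSMB8 difference was -0.39 (SE 0.16, adjusted p = 0.743), and it moved to -1.77 with no offset and to -0.22 with an offset of 100, passing the test under neither. PSMB9, the counterpart of PSMB6, read 4.37, 3.29 and 28.1 in control and 7.14, 2.27 and 6.52 in knockdown, so a single control array made its difference of -0.14, which was 0.04 without it. No detection calls were used, and whether PSMB8 and PSMB9 transcripts were present at all cannot be read from these signals. In such bulk samples fewer expressing cells and less RNA per cell cannot be told apart. Leukocyte markers mark cells that carry the immunoproteasome at rest. All 6 of the 8 listed genes that were measured were dimmer than the median gene. Not all lay below the array medians: CD79A read 95.5 to 247 and CD14 2.62 to 21.8. The mean log2 value of the 6 ran from 6.44 to 6.79 in control and from 6.42 to 6.89 in knockdown, so the groups overlapped.

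**Figure D2:**
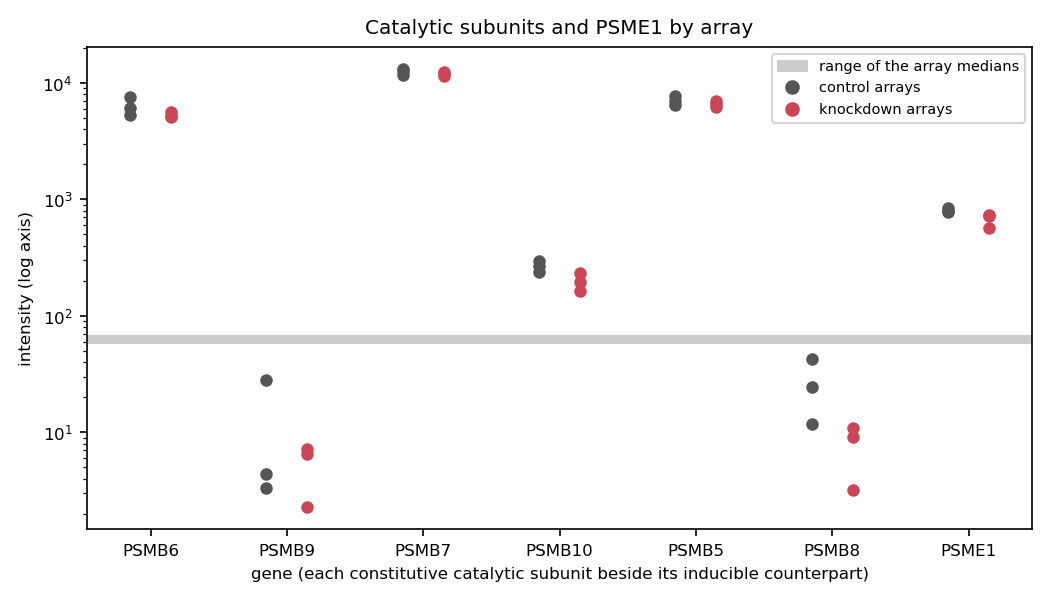
Intensity on each array (log axis; grey points control, red points knockdown, 3 each) for the constitutive catalytic subunits beside their inducible counterparts, and for PSME1; the grey band is the range of the array medians. PSMB8 and PSMB9 lie under the band on every array, and PSMB8, PSMB10 and PSME1 have all red points under all grey points; heights are not comparable between genes because each has its own probe set.

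Stretches of the promoters of the inducible subunits and of PSMA4, PSMB3 and PSME1 are shown so that a match to the motifs counted further on can be seen in place. These genes were picked because they hold a match and either read lower without overlap or, for PSMB9, complete the inducible trio. PSMA5, PSMC6, PSMD8 and PSMD14, also lower without overlap, have a promoter window with no match to any of the motifs and are not shown. They are from RefSeq on GRCh38.p14, 60 bases each, read 5′ to 3′ on the strand of the gene, and the capitals mark the matched motif. The motif in PSMB8 and PSMB10 is a pair of GAAA runs with 2 bases of any kind between them, of the type bound by interferon regulatory factors. The motif in the other 4 is TGACNNNGC, the core of the antioxidant response element to which NFE2L1 binds. Both were searched on both strands, and the matches in PSMB8 and PSMB9 are on the strand opposite to the gene.
PSMB8 (chr6:32844042-32844101, minus strand, motif from base -4 to base 6 of the transcript start): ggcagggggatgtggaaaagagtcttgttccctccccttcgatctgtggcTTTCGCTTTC
PSMB10 (chr16:67936851-67936910, minus strand, motif from -21 to -12): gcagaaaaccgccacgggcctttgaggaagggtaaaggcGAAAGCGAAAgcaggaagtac
PSMB9 (chr6:32854018-32854077, plus strand, motif from -148 to -140): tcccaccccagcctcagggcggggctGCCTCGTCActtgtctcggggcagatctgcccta
PSMA4 (chr15:78540634-78540693, plus strand, motif from -126 to -118): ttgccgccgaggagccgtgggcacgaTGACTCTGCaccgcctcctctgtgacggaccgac
PSMB3 (chr17:38752611-38752670, plus strand, motif from -104 to -96): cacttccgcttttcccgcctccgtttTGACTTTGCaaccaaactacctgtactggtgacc
PSME1 (chr14:24136082-24136141, plus strand, motif from -86 to -78): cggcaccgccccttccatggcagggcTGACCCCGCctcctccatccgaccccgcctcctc

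Promoter windows of 300 bases, from 250 before to 50 after a transcript start, were at hand for 36 of the 42 genes, in 43 windows. TGACNNNGC occurred in 13 of the 43 (30.2%), against 13.35% of all 35116 windows. The 13 genes with it had a median difference of -0.05, with 8 below 0, and the 23 genes without it one of -0.06, with 15 below 0. The paired GAAA motif occurred in 6 of the 43 windows (14.0%), against 3.57% of all windows. Its 6 genes were PSMA4, PSMB4, PSMB8, PSMB10, PSME1 and PSMG4, with 5 below 0 and a median of -0.22, and the 30 genes without it had 18 below 0 and a median of -0.04. TTCNNNGAA, the core of the element bound by STAT dimers after interferon gamma, occurred in 8 windows (18.6%), against 7.66% of all. Its 8 genes had 5 below 0 and a median of -0.035, and the 28 genes without it had 18 below 0 and a median of -0.056. Matched bases of different motifs did not overlap in any of the 43 windows. The motifs were chosen after the values had been seen, and a match says only that these letters stand in the window.

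The 19S base holds the ATPases PSMC1 to PSMC6 and the scaffold and ubiquitin-binding subunits PSMD1, PSMD2 and PSMD4. Of its 8 measured members 4 lay above 0 and 4 below, with a median of -0.004. PSMC6 was the exception in size: it read 6856, 7289 and 6585 in control and 5158, 5855 and 5858 in knockdown. Its groups stood 726 units apart, the difference was -0.30 (SE 0.10), and at an adjusted p of 0.709 in limma it had the smallest p of the 42 members. PSMC1, another ATPase of the same ring, read 3935, 4033 and 4264 in control and 4428, 4216 and 4513 in knockdown, a difference of 0.10 (SE 0.09, adjusted p = 0.858). The remaining ATPases, PSMC2, PSMC3 and PSMC4, lay between -0.12 and -0.01. PSMD1 and PSMD2, the large scaffold proteins, were at 0.003 and 0.005 with intervals of -0.27 to 0.27 and -0.23 to 0.24. PSMD4, a ubiquitin receptor, was at 0.11 (SE 0.14), or 0.0061 without knockdown replicate 1, its highest array at 13318.

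The lid contains the deubiquitinase PSMD14 and the scaffold subunits around it, and 3 of its 6 measured members lay on each side of 0. PSMD8 read 3102, 2993 and 3253 in control and 2507, 2746 and 2808 in knockdown, without overlap (difference -0.21, SE 0.09, adjusted p = 0.754). PSMD14, which cuts ubiquitin chains off substrates, read 8661, 8961 and 9450 in control and 7004, 8527 and 8405 in knockdown. Its groups were also separate, by 134 units between the closest arrays, and knockdown replicate 1 lay farthest down (difference -0.18, SE 0.11, adjusted p = 0.812). PSMD11, a lid subunit known for its high level in human embryonic stem cells, went the other way on 1 array: it read 3461, 3145 and 2926 in control and 4140, 3365 and 3022 in knockdown. Its difference of 0.13 (SE 0.14, adjusted p = 0.882) was 0.0088 without knockdown replicate 1. PSMD3 was at 0.08, PSMD6 at 0.002 and PSMD12 at -0.07, all with overlapping groups.

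Chaperones that build the base, PSMD5, PSMD9 and PSMD10, lay at -0.05, 0.05 and 0.06 with overlapping groups. Among the 4 chaperones of the core, PSMG3 read 2812, 3143 and 2944 in control and 2302, 2488 and 2673 in knockdown. The 3 knockdown arrays were lower, at 83.9% of the control mean (difference -0.25, SE 0.10, adjusted p = 0.739). Its binding partner PSMG4 read 1598, 1553 and 1698 in control and 1265, 1748 and 1637 in knockdown. Here knockdown replicate 1 alone was low, and the difference turned from -0.07 to 0.06 without it. PSMG1 and PSMG2, which pair to seed the alpha ring, were at -0.07 and 0.06 (SE 0.12 and 0.09).

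Activators other than 19S open the core for peptides. PSME1, an interferon-induced subunit of the PA28 cap, read 841, 783 and 788 in control and 741, 565 and 724 in knockdown. The groups did not overlap, and the difference was -0.24 (SE 0.12, adjusted p = 0.781), or -0.13 without knockdown replicate 2. PSME3, the nuclear member of that family, was at 0.07 (SE 0.09), and PSME4, a cap that acts in the nucleus and in sperm development, at 0.06 (SE 0.12). PSMF1, named as an inhibitor of the core, was at -0.03 (SE 0.10). None of these passed, and PSME3 read 1201, 1271 and 1296 in control and 1259, 1343 and 1363 in knockdown, so its groups overlapped.

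**Figure D3:**
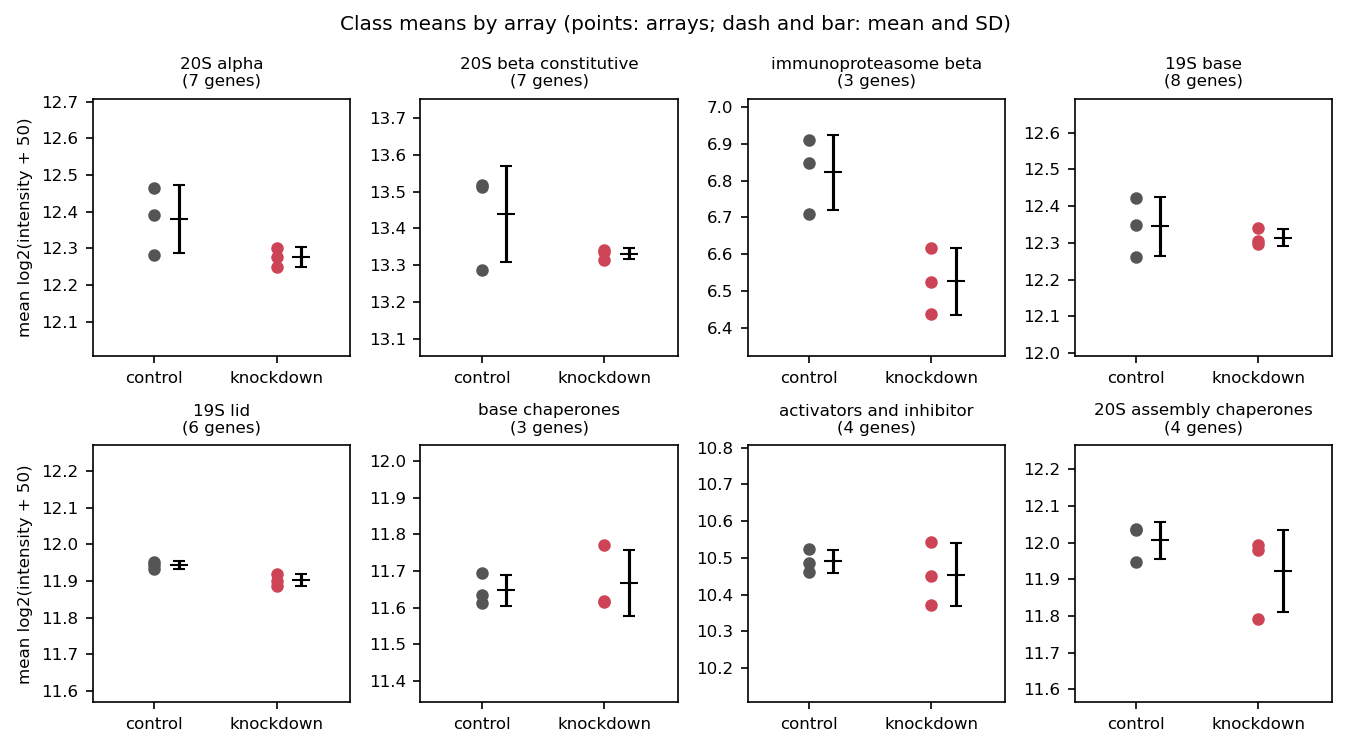
Mean log2(intensity + 50) of the measured genes of each class on each array (points), with the mean and SD of the 3 arrays of a group beside them; each panel spans 0.7 log2 units. Knockdown points lie under all control points for the inducible beta subunits and, by 0.013, for the lid; in the other 6 classes the groups overlap.

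Averaged over a class, the core subunits differed by about the standard deviation of the control arrays. For the constitutive beta subunits the class mean on the log2 scale was 13.44 ± 0.13 over the control arrays and 13.33 ± 0.015 over the knockdown arrays (SD, n = 3). Control replicate 1, at 13.29, read below all 3 knockdown arrays, and the other two control arrays read 13.51 and 13.52. The alpha subunits had means of 12.38 ± 0.092 and 12.28 ± 0.027, with control replicate 1 at 12.28. For the base the means were 12.34 ± 0.080 and 12.31 ± 0.023. The lid had 11.94 ± 0.0099 and 11.90 ± 0.017, a small difference on tight arrays, and its median turned above 0, to 0.03, when the probe sets of a gene were averaged. The inducible beta subunits had 6.82 ± 0.10 and 6.53 ± 0.090, with 2 of the 3 genes dimmer than the median gene. The mean over all 42 members was lower on every knockdown array than on every control array by 0.00028 or more. This separation needed the dim members PSMA8, PSMB8 and PSMB9. Over the 39 members of at least median signal the groups overlapped, the lowest control mean minus the highest knockdown mean being -0.010. Class means were not tested, since the members had been chosen with earlier results of these data known.

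Arrays of a group differed over the proteasome genes in a shared way. Control replicate 1 was the lowest control array for 27 of the 42 members (64.3%), against 31.3% of all genes, and control replicate 3 the highest for 23 (54.8%), against 33.5%. In the knockdown group, replicate 1 was the array farthest from the other two for 27 members (64.3%), against 46.1% of all genes. It was the lowest for 19 members and the highest for 18, so it did not shift the whole set one way. On that array 8 members read highest of all 6 arrays: PSMB2, PSMD1, PSMD4, PSMD6, PSMD11, PSME4, PSMF1 and PSMG2. Another 17 read lowest there, among them 9 of the 10 members lower without overlap, PSME1 being the exception. For those 10 the lowest array is a knockdown array by definition. The matching shares of all genes over the 6 arrays were not computed. The median standard deviation within a group was 0.095 for the 39 members of at least median signal and 0.13 for all such genes.

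**Figure D4:**
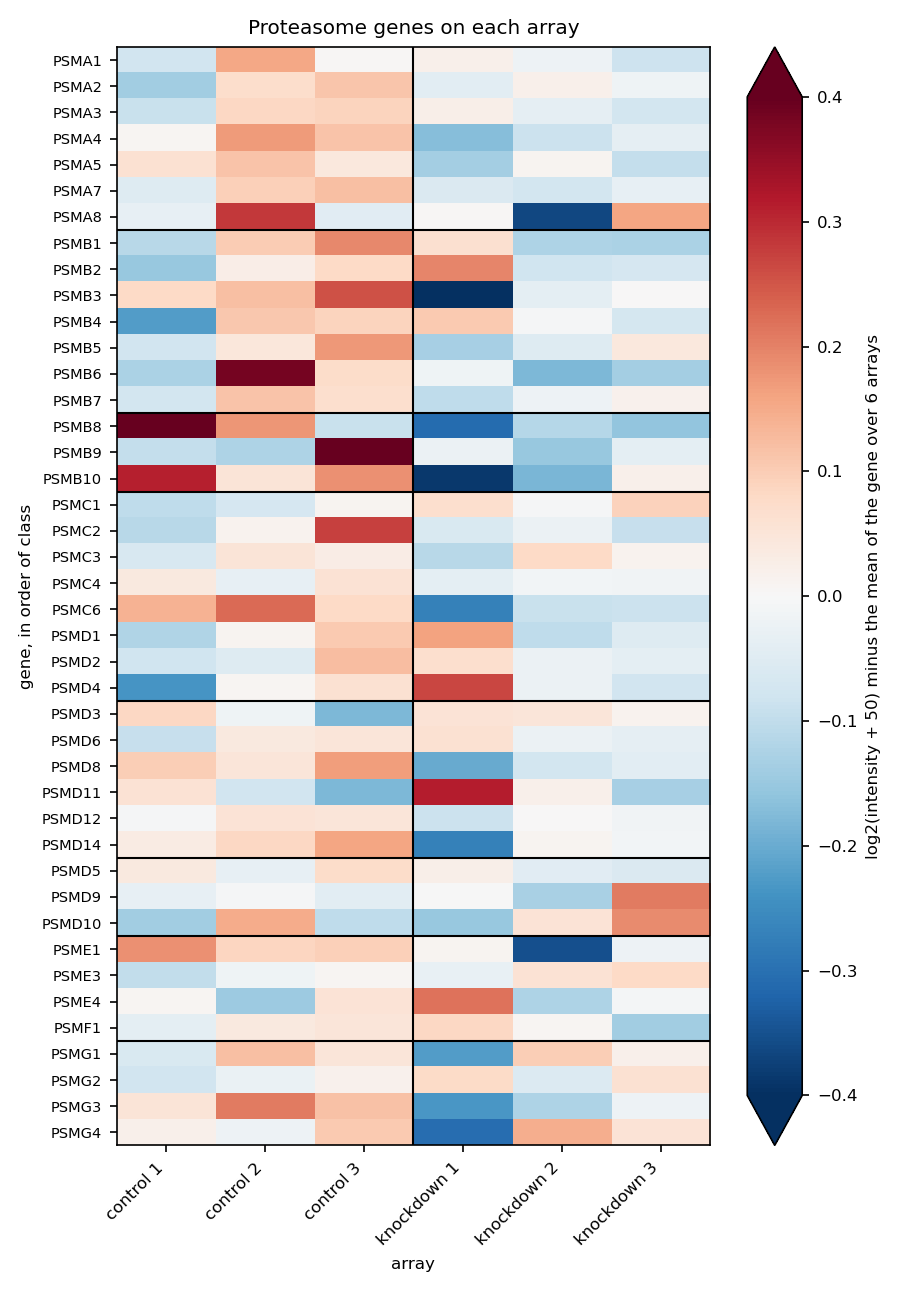
Log2(intensity + 50) on each array minus the mean of the gene over the 6 arrays (colour; red higher, blue lower, limited to 0.4 on each side), with genes in order of class and lines between classes and groups. Control replicate 1 is blue for most 20S core genes while knockdown replicate 1 holds many of the strong blue and strong red cells of the knockdown group.

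A gene's other probe sets give a second reading. Of the 42 members 22 had more than 1 probe set, and 22 of the 39 additional probe sets were at least as bright as the median gene. Of these 22, 13 had the sign of the probe set used. Tested over all 41091 probe sets that name 1 gene, 0 of the 81 passed (smallest adjusted p = 0.733 in limma, where 0.00243% of probe sets passed), and 50 lay below 0. For the alpha subunit PSMA1 the second probe set gave -0.15 (SE 0.10) against -0.06 for the one used, with -0.02 for the remaining one, and that of PSMA2 gave -0.16 (SE 0.10) against -0.03. Both of these second probe sets were lower without overlap, as were 5.47% of all probe sets that name 1 gene. PSMB2 disagreed: a probe set of mean intensity 375 gave -0.39 (SE 0.14, adjusted p = 0.742), against 0.03 for the one used, whose mean was 14003, and dimmer ones gave 0.31 (SE 0.21) and 0.18 (SE 0.14). The PSMD9 probe set of mean intensity 214 gave -0.38 (SE 0.15, adjusted p = 0.748), against 0.05. PSMF1 had a probe set higher without overlap, as were 7.03% of all probe sets, at 0.19 (SE 0.09, adjusted p = 0.783), against -0.03. Its remaining ones lay at -0.17 and -0.04. A PSMD6 probe set of mean intensity 18.9 gave 0.38 (SE 0.15, adjusted p = 0.755) with overlapping groups, against 0.002. Of the 10 members lower without overlap, 9 had 1 probe set each and so no second reading. PSMA5 had a second, of mean intensity 357, at -0.04 (SE 0.16) with overlapping groups.

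**Figure D5:**
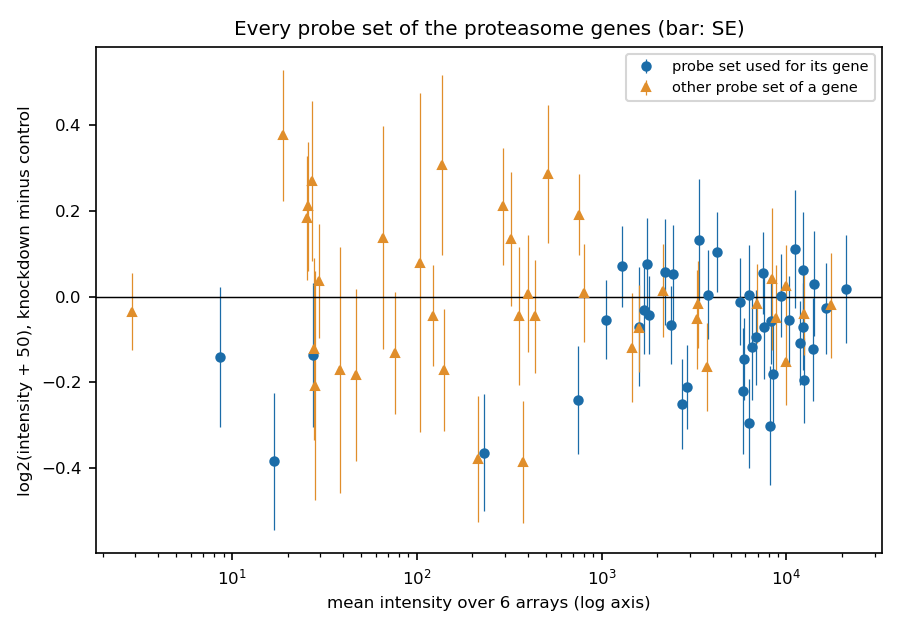
Difference in log2(intensity + 50), knockdown minus control, with its SE (bar) against mean intensity over the 6 arrays (log axis) for each of the 81 probe sets of the 42 genes; blue circles stand for their gene and orange triangles are its other probe sets. Differences past 0.3 on either side come from probe sets under an intensity of 500, apart from that of PSMB3.

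Genes that work with the proteasome lay evenly about 0. Of 29 measured genes for its transcription, assembly and supply with ubiquitinated proteins, 15 lay above 0 and 14 below (median 0.02), and 0 passed (smallest adjusted p = 0.739 in limma). NFE2L1 read 3392, 3444 and 3173 in control and 3396, 3507 and 3688 in knockdown, a difference of 0.08 (SE 0.09). The core maturation factor POMP was at -0.07, the ubiquitin receptor ADRM1 at 0.04, and the deubiquitinases UCHL5 and USP14 of the regulatory particle at 0.06 and -0.07. The 2 with the smallest p were UFD1, a cofactor that extracts ubiquitinated proteins with the ATPase VCP, at -0.22 (SE 0.09, adjusted p = 0.739), and UBA6, a ubiquitin-activating enzyme, at -0.28 (SE 0.16, adjusted p = 0.803). UFD1 read 3091, 3393 and 3226 in control and 2824, 2730 and 2760 in knockdown, without overlap. It was 1 of 2 genes among the 29 that read lower without overlap, against 6.29% of all genes. Another 1 read higher without overlap, against 6.68%.

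Antigen presentation and interferon response genes, with which the immunoproteasome is known to be induced, were 12 above 0 and 10 below among 22 measured (median 0.02), with 9 dimmer than the median gene, and 0 passed (smallest adjusted p = 0.772 in limma). Of the pair with the smallest p, B2M, the light chain of class I molecules, read 8739, 8625 and 9546 in control and 8149, 7461 and 7887 in knockdown. Its groups did not overlap (difference -0.19, SE 0.09, adjusted p = 0.772). CALR, a chaperone of class I folding, was at 0.28 (SE 0.14, adjusted p = 0.773). TAP1, the peptide transporter whose start lies 488 bases from that of PSMB9, read 63.7, 19.9 and 50.5 in control and 12.3, 40.0 and 6.59 in knockdown, with overlap (difference -0.44, SE 0.24, adjusted p = 0.787). IRF1, an interferon-induced transcription factor, was at 0.15 (SE 0.12). NLRC5, which activates class I genes, was the 1 gene of the 22 that read higher without overlap (0.22), at signals of 4.68 to 24.6. B2M was the 1 that read lower. Among all genes, 6.68% read higher without overlap and 6.29% lower.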

How the data were processed

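RNA was measured on 3 control and 3 knockdown arrays. The authors deposited intensities on a linear scale for 54675 probe sets, each array with a 2% trimmed mean of 500.07. The submitters' processing notes name RMA, which does not describe linear values, and neither software nor background correction is given in the sources used here. Names came from the platform annotation, updated by gene identifier through RefSeq (GRCh38.p14; 41037 of 41091 single-gene probe sets matched). PSMA6 and PSME2 were read only by probe sets naming several genes, and PSMB11, PSMC5, PSMD7 and PSMD13 were not analysed here.

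The probe set with the highest mean log2(intensity + 50) stood for its gene. Groups were compared in limma 3.58.1 (R 4.3.3; lmFit, eBayes) with Benjamini-Hochberg adjustment over 19775 genes. The number of arrays limits the precision. With 3 arrays a group, the smallest p of an exact two-sided permutation test is 0.1. Code was tested on simulated arrays.

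Named were VAMP7, any member, the 2 of smallest p in each class of at least 4 genes and each other list, and set pathway genes. The members, lists and rules were chosen with earlier results of these data known. Alternatives covered offsets, a filter on dim genes, probe set choice, scaling, eBayes options, array weights, the replicate block and the omission of each array. Counts of genes below 0 and without overlap under these were added after the data were seen.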

Additional observations from a re-analysis of the deposited data

How the results depend on the processing

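No proteasome gene passed the adjusted threshold under any of the 17 alternatives (smallest adjusted p = 0.461), and VAMP7 passed under all of them, with differences of -4.10 (offset 0) to -3.42 (offset 100) (adjusted p = 1.08e-07 to 0.00764). Of the 42 members, 24 kept their sign throughout, 19 below 0 and 5 above. Members lower at an unadjusted p under 0.05 numbered 2 with array weights (3.67% of all genes), 2 with the replicate block (2.78%) and 1 to 4 without 1 array (2.7% to 3.19%). They numbered 3 at offsets of 0 (2.49%) and 16 (2.64%), 5 at 100 (3.36%) and 4 after quantile normalization (3.85%). Bright genes only gave 5 (4.41% of such genes), and the mean of probe sets 5 (2.72%). Median centring gave 6 (4.3%), as did eBayes trend and robust options (3.37%). With every probe set on its own, 6 of the 81 were lower at that threshold (2.69% of all probe sets) and 1 was higher (3.91%). Of the 81, 50 lay below 0 (47.2%), 14 were lower without overlap (5.47%) and 1 was higher without overlap (7.03%). After quantile normalization 10 members were lower without overlap (7.23% of all genes) and 1 was higher (6.24%). Median centring gave 12 lower (9.09%) and 0 higher (4.71%). Bright genes only gave 9 lower (7.83% of such genes) and 0 higher (7.55%). The mean of probe sets gave 11 lower (5.57%) and 0 higher (7.01%). Leaving out 1 array gave 10 to 19 members lower without overlap (10.8% to 12.4% of all genes), 0 to 3 higher (11.1% to 12.7%) and 25 to 33 below 0 (48.1% to 51.5%).

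Same-numbered replicates did not deviate together (correlations -0.009, 0.085 and -0.070), so the replicate numbers were not taken as pairs, and the replicate block changed no adjusted call.

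Without 1 array the class medians ran from -0.105 to -0.028 over all members, -0.151 to -0.029 (alpha), -0.158 to -0.054 (constitutive beta), -0.041 to 0.028 (base), -0.403 to -0.236 (inducible beta), -0.064 to -0.016 (lid), -0.037 to 0.065 (base chaperones), -0.059 to 0.040 (activators and inhibitor) and -0.149 to 0.027 (core chaperones). The inducible beta median was -0.65 at an offset of 0 and -0.22 at 100. That of the lid was 0.025 with averaged probe sets, 0.014 with every probe set and -0.067 after median centring, and that of the base chaperones -0.044 and -0.042 with the first 2 of these.

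At an unadjusted p under 0.05 the main fit held 1 of 29 proteasome-associated genes and 0 of 22 antigen presentation genes. The shares of all genes were 3.03% lower and 3.63% higher. The proteasome-associated list held 0 genes at an offset of 16 (2.64% lower and 3.42% higher among all genes). Without 1 array it held 0 to 1 (2.7% to 3.19% lower and 3.03% to 3.77% higher). With every probe set it held 2 probe sets (2.69% lower and 3.91% higher among all probe sets). At an offset of 100 the antigen presentation list held 1 gene (3.36% lower and 3.87% higher among all genes). It held 1 with bright genes only (4.41% and 4.48% of such genes) and 1 with the mean of probe sets (2.72% and 3.56%). After median centring it held 1 (4.3% and 2.7%), as with array weights (3.67% and 4.22%). With every probe set it held 3 probe sets, and with eBayes trend and robust options 2 genes (3.37% and 3.65%). Without 1 array it held 0 to 1.

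Members near 0 changed sign. With array weights PSMB2 was at -0.016, PSMB4 at -0.0083, PSMC3 at 0.015, PSMD1 at -0.034, PSMD2 at -0.015 and PSMD6 at -0.013. The mean of probe sets put PSMB1 at 0.016, PSMB4 at -0.016, PSMD1 at -0.0074, PSMD4 at -0.0073, PSMD9 at -0.16 and PSMG4 at 0.049. Median centring put PSMB2 at -0.0048, PSMB4 at -0.017, PSMD1 at -0.032, PSMD2 at -0.030 and PSMD6 at -0.033. Quantile normalization put PSMA2 and PSMC3 both at 0.011. Without 1 array the ranges that crossed 0 were -0.107 to 0.0072 (PSMA1), -0.103 to 0.022 (PSMA2), -0.248 to 0.012 (PSMA8), -0.059 to 0.078 (PSMB2), -0.089 to 0.075 (PSMB4), -0.238 to 0.038 (PSMB9), -0.054 to 0.041 (PSMC3), -0.076 to 0.056 (PSMD1), -0.017 to 0.154 (PSMD10), -0.034 to 0.067 (PSMD2), -0.043 to 0.027 (PSMD6), -0.039 to 0.130 (PSMD9), -0.037 to 0.133 (PSME4), -0.081 to 0.030 (PSMF1), -0.137 to 0.023 (PSMG1) and -0.161 to 0.065 (PSMG4). The causes were not tested. Signals below the array medians limit PSMA8, PSMB8 and PSMB9.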

Other observations

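PSMA6, the remaining alpha subunit, was read by 2 probe sets that also name PRORP. The brighter read 12337, 16041 and 14219 in control and 12510, 14822 and 13667 in knockdown, a difference of -0.05 on the log2 scale with overlapping groups, and the dimmer differed by -0.03. PSME2, the partner of PSME1 in the PA28 cap, was read by 1 probe set that also names MIR7703. It read 1433, 1341 and 1495 in control and 1295, 1582 and 1432 in knockdown, a difference of 0.01, so the lower readings of PSME1 were not seen there. The 2 probe sets that name PSMA2 together with C7orf25 differed by -0.04 and 0.05. These probe sets entered no test.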
